A study of Mus musculus with 4 samples.

Results

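Chemokines are small secreted proteins that steer leukocytes along gradients through seven-transmembrane receptors. In the intestine, epithelial cells, fibroblasts, endothelium and macrophages each make a characteristic set, and these sets draw lymphocytes, plasma cell precursors, monocytes or neutrophils into the mucosa. CC chemokines carry adjacent cysteines near the amino terminus, whereas CXC chemokines have 1 residue between them.

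The genes described here are 10 chemokines of the gut mucosa: Cxcl12, Cxcl14, Cxcl13, Ccl8, Cxcl16, Ccl25, Ccl28, Ccl20, Ccl6 and Cxcl1. They were taken by symbol, as every gene probe whose accession belongs to one of these genes, which gave 13 probes for 10 genes out of 41174 gene probes for 32665 genes and transcripts. Of these, 9 genes with 12 probes were bright enough to be tested, among 20825 genes and transcripts in all; Cxcl1 was not.

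The RNA came from colonic mucosa of C57BL/6 mice, scraped from the colon wall and frozen, 90 days (P90) or 30 days (P30) after birth. Each of 4 two-colour arrays, named a, b, e and k in the labels, held 1 P90 RNA and 1 P30 RNA. The P90 RNA carried Cy5 on array e and Cy3 on the other 3. The labels give no treatment, no genotype beyond the strain and no sex, and do not say whether an RNA came from 1 animal or from a pool, so the p-values cover only the spread of these 4 pairs, which may in part be technical.

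The signal of a probe is given below as log2 of its background-corrected intensity, made comparable between arrays, and the ratio as log2 P90/P30, which is above 0 where P90 was higher. Between 55.6% and 69.3% of gene spots were well above background in the P90 channels, against 64.6% to 71.0% in the P30 channels. The P90 channels of arrays a and k were the dimmest of the 8, with 55.6% and 57.3% of gene spots above background and a median raw brightness of 72 and 78, where the other channels had a median of 100 to 142.5. Taken across genes, which are no independent replicates, the ratios of array b ran against those of the other arrays, with a Pearson r of -0.31 with array a, -0.27 with e and -0.19 with k, while a, e and k correlated positively with each other (r from 0.32 to 0.60). The dyes of every array are given in the labels, so the labelled direction was kept, and results that rest on array b are also given without it.

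The labelled tissue was checked against its markers: 13 of 14 listed genes of colonic epithelium were tested, and no probe was named as Muc2. Of the 13, 9, the keratin genes Krt8 and Krt18 included, were saturated in a channel on at least 1 array. Ratios of saturated spots follow the scanner's ceiling, and those of this list are not read here. Among the other marker lists, 1 gene of small intestinal epithelium and 2 of adipocytes were saturated on at least 1 array. Markers of other cells were bright enough to be tested too: 12 of 12 of fibroblasts and matrix, 11 of 12 of macrophages (no probe was named as Cd68) and 10 of 10 of endothelium. So were 8 of 8 of smooth muscle, 10 of 10 of T cells and 9 of 10 of adipocytes. Of all genes and transcripts, 20825 of 32665 were.

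None of the 9 chemokine genes tested differed between P90 and P30 by more than the spread between arrays. None passed limma's moderated test at an adjusted p of 0.05, where 0% of all genes did, and none had an unadjusted p below 0.05, against 7.9% of all genes. Of the 9 genes, 7 had a mean ratio below 0 (54.4% of all genes had) and 2, Ccl20 and Ccl6, a mean above 0. For Ccl6 the sign is not settled because of saturated P30 spots. The median of the 9 means was -0.32, beside -0.020 over all genes. It was -0.041 without array k (-0.024 over all genes), -0.57 without array b (-0.0062) and -0.70 with the direction of array b turned (0.0083). No chemokine was higher on all 4 arrays (6.15% of all genes were) or lower on all 4 (7.98%). With 4 pairs, an exact permutation of signs could not give a two-sided p below 0.125 for any single gene.

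The chemokines spread widely between arrays. The SD of the ratio over 4 arrays had a median of 0.85 over the 9 genes, beside 0.35 over all genes, and it exceeded 1 for Cxcl12, Cxcl14 and Ccl25, 3 of 9 genes, where 5.61% of all genes did. Which genes and how many exceeded 1 depended on the arrays used and on the direction of array b. Without array b the SD exceeded 1 for Ccl25 (1.41), Ccl20 (1.11) and Cxcl12 (1.04), beside 2.53% of all genes. With array b turned Ccl25 was the 1 gene above 1 (1.17), beside 2.59%. The SD exceeded 1 for 4 genes without array e (7.63% of all genes) and for 4 without array k (7.45%). Without array k that of Ccl25 fell to 0.42, while Ccl20 (1.06) and Ccl28 (1.02) exceeded 1. The median SD of the 9 genes was 0.58 without array b and 0.57 with it turned, beside 0.26 and 0.29 over all genes. The array that stood apart was not the same for each gene: it was array b for Cxcl12, Cxcl14, Cxcl13 and Ccl8, array a for Ccl20, and array k for Ccl25, Cxcl16 and Ccl6.

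**Figure D1:**
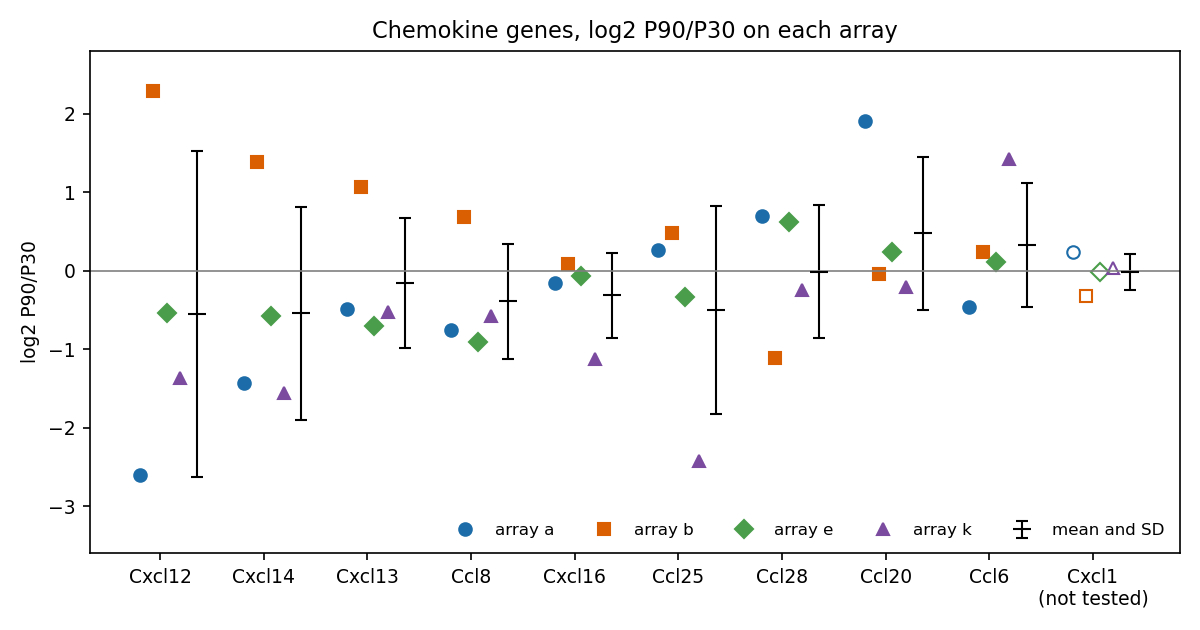
Log2 P90/P30 of each chemokine gene (vertical axis) on each of the 4 arrays, with the mean and SD over arrays in black. Open symbols mark Cxcl1, which was too dim to be tested. Ccl6 on arrays a and b rests on saturated P30 spots. Cxcl12 spans -2.60 on array a to 2.29 on array b, and the first 5 genes from the left are above 0 on array b alone.

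Cxcl12 is made by fibroblasts and other stromal cells and signals through Cxcr4, while Ackr3 takes it up as a scavenger. Its P90 signal was 7.44, 10.29, 10.44 and 8.397 on arrays a, b, e and k, against a P30 signal of 10.04, 8.0, 10.98 and 9.76 on arrays a, b, e and k. The P90 RNAs formed a low pair (a and k) and a high pair (b and e), the P30 RNA of array b was the lowest of its age, and the ages overlapped. The low pair came from the channels that were dimmest over all spots; the part of this in the ratios was not tested. The ratio was -2.60, 2.29, -0.54 and -1.37 on arrays a, b, e and k. Its mean was -0.56 ± 2.07 (SD, n = 4), or 0.68-fold, with a 95% interval of -2.44 to 1.32 (limma adjusted p = 0.892).

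A second Cxcl12 probe, designed on another transcript of the gene, gave -1.99, 2.001, -1.43 and -0.90 on arrays a, b, e and k. Both probes thus had the same sign on every array and means of -0.56 and -0.58.

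Cxcl14, a CXC chemokine of epithelia and fibroblasts, had a P90 signal of 7.36, 9.33, 9.57 and 7.53 on arrays a, b, e and k, against a P30 signal of 8.79, 7.95, 10.15 and 9.09 on the same arrays. As with Cxcl12, the P90 RNAs of arrays a and k, the dim channels, were low and the P30 RNA of array b was the lowest of its age. The ratio of Cxcl14 was -1.43, 1.38, -0.58 and -1.56 on arrays a, b, e and k, with a mean of -0.55 ± 1.36 (SD, n = 4; 95% interval -1.79 to 0.70, limma adjusted p = 0.813).

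Cxcl13, which follicular stromal cells make and which draws B cells into follicles through Cxcr5, had a P90 signal of 6.66, 7.73, 6.71 and 6.14 on arrays a, b, e and k, against a P30 signal of 7.14, 6.66, 7.42 and 6.67 on those arrays. Its P90 spot on array k was not well above background. The ratio was between -0.48 and -0.70 on arrays a, e and k and 1.07 on array b, with a mean of -0.16 ± 0.83 (SD, n = 4; limma adjusted p = 0.938). The P90 RNA of array b was thus the highest of all 8 RNAs, and the other 7 overlapped.

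Ccl8, a macrophage chemokine that acts on mouse Ccr8, had a P90 signal of 6.54, 7.16, 7.60 and 6.54 on arrays a, b, e and k, against a P30 signal of 7.30, 6.48, 8.51 and 7.13 on those arrays. It was well above background on 2 of 4 arrays at P90 and on 4 of 4 at P30. The ratio was -0.76, 0.68, -0.91 and -0.58 on arrays a, b, e and k, with a mean of -0.39 ± 0.73 (SD, n = 4; limma adjusted p = 0.741). The ages overlapped, and array e held the highest RNA of each.

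Cxcl16 is a membrane-bound chemokine that is shed as a soluble ligand of Cxcr6 on T cells. Its brighter probe had a P90 signal of 10.32, 9.40, 9.79 and 8.10 on arrays a, b, e and k, against a P30 signal of 10.47, 9.32, 9.86 and 9.23. The ratio was within 0.16 of 0 on arrays a, b and e and -1.12 on k, where the P90 RNA was the lowest of its age. The mean was -0.32 ± 0.54 (SD, n = 4; limma adjusted p = 0.736). The dimmer probe gave 0.47, 0.014, 0.33 and -0.70 on arrays a, b, e and k, and a mean of 0.030, so the 2 probes of Cxcl16 had the same sign only on arrays b and k.

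These 5 genes, Cxcl12, Cxcl14, Cxcl13, Ccl8 and Cxcl16, were negative on arrays a, e and k and positive on array b, as were 19.1% of all genes. For Cxcl16 the value on array b was 0.077, and its dimmer probe was above 0 on arrays a, b and e. Without array b, 4 of the 9 chemokines had an unadjusted limma p below 0.05, where 22.3% of all genes did. They were Ccl8 (mean -0.75, adjusted p = 0.0858), Cxcl14 (-1.19, adjusted p = 0.0918), Cxcl13 (-0.57, adjusted p = 0.104) and Cxcl12 (-1.503, adjusted p = 0.129), over 3 arrays in limma. None of these 4 passed after adjustment. The P90 spots of Ccl8 on arrays a and k and of Cxcl13 on array k were not well above background, which limits their ratios and the spread behind these p-values. Ccl8 was kept for testing through its P30 spots alone.

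**Figure D2:**
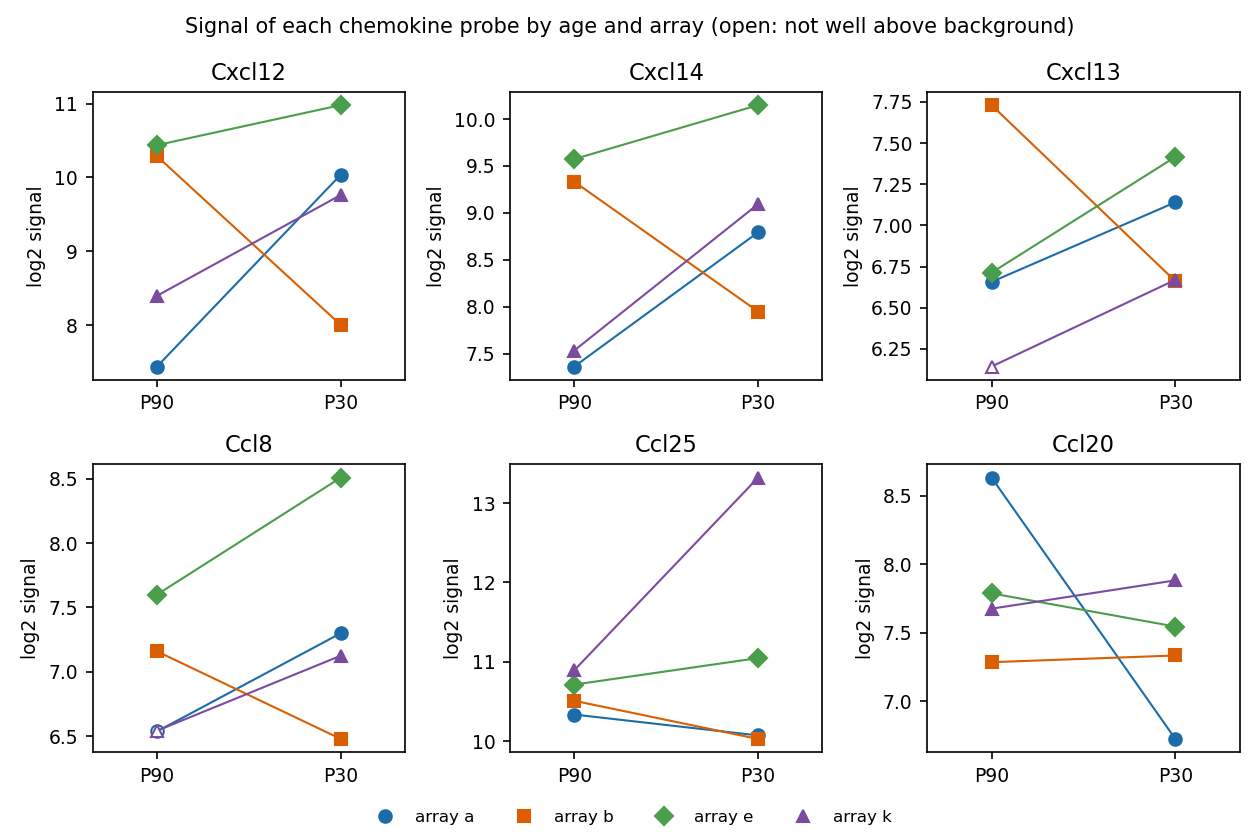
Log2 signal (vertical axis) of 6 chemokines at P90 and P30, with the 2 RNAs of an array joined by a line and open symbols for spots not well above background. For Cxcl12, Cxcl14, Cxcl13 and Ccl8 P90 lies above P30 on array b and below it elsewhere, and Ccl25 at P30 on array k lies at 13.32, above the other 7 RNAs.

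Markers of connective tissue moved with Cxcl12 and Cxcl14. The fibroblast and matrix list (12 of 12 genes tested) had a median ratio of -3.11, 1.40, -1.39 and -2.69 on arrays a, b, e and k. In this list 11 of the 12 had the same sign pattern as Cxcl12, where 19.1% of all genes did. The summed signal of the list ran from 12.10 to 15.17 over the P90 RNAs, against 13.79 to 16.75 over the P30 RNAs. Its brightest members were Col3a1, at -4.41 on array a and 1.37 on b, and Col1a2, at -4.23 and 1.53. Both are fibrillar collagen genes.

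The macrophage list (11 of 12 tested, with no probe named as Cd68) had median ratios of -1.39, 0.86, -0.69 and -1.42 on arrays a, b, e and k. That sign pattern was shared by 10 of its 11 genes, beside 19.1% of all genes. Its summed signal ran from 11.02 to 12.65 over the P90 RNAs, against 11.40 to 13.30 over the P30 RNAs. The complement gene C1qc, the brightest, was at -1.62, 1.04, -0.34 and -1.93 on arrays a, b, e and k, and Mpeg1, a macrophage perforin-like gene, at -1.86, 1.47, -0.79 and -1.46. The part of these cells in the chemokine ratios was not tested. In tissue RNA of this kind, fewer cells of a type and less RNA per cell cannot be told apart.

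Endothelial markers (10 of 10 tested) had medians of -0.91, 0.89, -0.55 and -1.29 on a, b, e and k, with Plvap, a protein of capillary fenestrae, at -0.58 ± 1.43 and Ramp2, a receptor partner for adrenomedullin, at -0.63 ± 1.40 (SD, n = 4 each). Lymphatic endothelial markers had 3 of 6 genes tested, with medians of -1.02, 0.81, -0.68 and -0.53, while Prox1, Flt4 and Mmrn1 were not tested; the hyaluronan receptor gene Lyve1 was at -0.81 ± 1.21 and Reln at -0.27 ± 0.96. Markers of B cells and follicles, the site of Cxcl13, stayed near 0 (9 of 10 tested, medians from 0.00080 to 0.074 over the arrays), with their summed signal between 9.76 and 10.17 at P90 and between 9.78 and 10.09 at P30. Cd79b, a subunit of the B cell antigen receptor, was at 0.20 ± 0.87 (SD, n = 4).

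Cxcl12 had the largest mean ratio in size and the largest SD of the chemokines over the 4 arrays as labelled. Elsewhere the order differed: Ccl25 had the largest SD without array b or with it turned, Ccl8 the largest mean with the scanner's processed signals (-1.16) and with the series' value table (-1.26), and Ccl20 the largest mean without array k (0.70). Of all genes with a symbol, those whose 4 array values lay nearest to Cxcl12 were Igfbp5 (Euclidean distance 0.66 over the 4 arrays), Fbln1 (0.73) and Vim (0.86). Igfbp5, an insulin-like growth factor binding protein, was at -2.56, 2.58, -0.71 and -1.93 on arrays a, b, e and k. Fbln1 encodes a matrix glycoprotein and Vim the intermediate filament of mesenchymal cells.

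Sequence just before the annotated start is shown for 3 chemokines that shared this array pattern, so that their promoter types can be seen. The windows are bases -100 to -1 before the RefSeq gene start in GRCm38.p6, all on the plus strand: chr6:117168435-117168534 for Cxcl12, chr5:95956839-95956938 for Cxcl13 and chr11:82115085-82115184 for Ccl8. Capitals mark a TATA box (TATAAA) or a GC box (GGGCGG), searched on both strands.
Cxcl12: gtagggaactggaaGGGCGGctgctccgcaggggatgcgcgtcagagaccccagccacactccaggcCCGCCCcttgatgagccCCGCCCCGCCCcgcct
Cxcl13: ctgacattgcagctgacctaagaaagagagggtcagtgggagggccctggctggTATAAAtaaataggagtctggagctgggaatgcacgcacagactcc
Ccl8: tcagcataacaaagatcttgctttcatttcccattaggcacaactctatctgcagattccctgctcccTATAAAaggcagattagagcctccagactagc

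The 3 sequences differ in kind: Cxcl12 holds 4 GC boxes in this stretch, the last 2 sharing a base, and no TATA box, whereas Cxcl13 and Ccl8 each hold 1 TATA box, which ends 41 and 27 bases before the start. In the full windows of 300 bases (250 before the start and 50 after it), a TATA box was found in 3 of 10 chemokine windows and in 13.6% of all 32851 windows, and a GC box in 3 of 10 and in 35.7%. The 10 windows belong to 9 of the genes, with 2 starts for Ccl25. Cxcl14 held 3 GC boxes just after its start and no TATA box.

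Ccl25 is the epithelial ligand of Ccr9 and is known chiefly from the small intestine and thymus. Its P90 signal was 10.33, 10.51, 10.71 and 10.89 on arrays a, b, e and k, against a P30 signal of 10.07, 10.03, 11.05 and 13.32. The P90 RNAs lay close together (SD 0.24), and the P30 RNA of array k was the highest of the 8; the next was P30 on array e. The ratio was 0.26, 0.48, -0.33 and -2.43 on arrays a, b, e and k, with a mean of -0.50 ± 1.33 (SD, n = 4; 95% interval -1.73 to 0.72, limma adjusted p = 0.828). A second, dimmer Ccl25 probe gave 0.43, 0.50, -0.40 and -1.34 on the same arrays, with the same sign as the first on each. Without array k the mean of Ccl25 was 0.14.

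The median ratio of the small intestinal markers was also lowest on array k. It had the signs of Cxcl12 as well, as did 6 of the 11 genes tested, beside 19.1% of all genes. That list (11 of 12 tested, with no probe named as Defa24) had median ratios of -0.12, 0.16, -0.12 and -1.24 on arrays a, b, e and k. Its summed signal ran from 14.51 to 16.00 over the P90 RNAs, against 15.70 to 16.41 over the P30 RNAs. Its brightest members were the fatty acid binding protein gene Fabp2, at -1.46 on k and 0.29 on b, and Ada, adenosine deaminase, at -1.70 on k and -0.59 on b. In this list 1 gene was saturated in a channel on at least 1 array. Fabp2 was the brightest by far, at a mean log2 intensity of 15.38 beside 10.76 for Ada. Ratios of Fabp2 and the summed signal may therefore follow the scanner's ceiling. Anpep, a brush border peptidase, was at -4.07 on k and between -0.24 and 0.45 elsewhere, and Fabp6, an ileal bile acid binding protein gene, at -2.24 on k and between -0.21 and 0.13 elsewhere; these 2 were named after their values were seen. Slc26a3, the chloride exchanger of colonic surface cells, likewise picked after its values were seen, was at -3.78 on k. The other 3 colonic markers with no saturated spot were at 0.84 (Cdx1), -0.24 (Cdx2) and -0.71 (Epcam) on that array. Lactase (Lct) was within 0.23 of 0 on every array, but it was the dimmest of the 11 genes, with a mean log2 intensity of 6.11. The part of these markers in the Ccl25 ratio was not tested.

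Ccl28, the epithelial ligand of Ccr10 that draws IgA plasma cells to the colon, had a P90 signal of 8.91, 7.31, 8.61 and 8.17 on arrays a, b, e and k, against a P30 signal of 8.22, 8.42, 8.001 and 8.42. Here the P30 RNAs lay close together (SD 0.20) and the P90 RNAs spread around them (SD 0.70). The ratio was 0.69, -1.12, 0.61 and -0.25 on arrays a, b, e and k, so array b was the lowest, opposite to the genes that follow Cxcl12. The mean was -0.015 ± 0.85 (SD, n = 4; 95% interval -0.83 to 0.80, limma adjusted p = 0.996), and 0.35 without array b.

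Plasma cell markers (9 of 10 tested, Irf4 not) had medians of -0.020, 0.66, 0.55 and -0.16 on arrays a, b, e and k. Their summed signal ran from 14.15 to 15.36 over the P90 RNAs, against 14.10 to 14.60 over the P30 RNAs. The brightest were the proteoglycan gene Sdc1, which epithelium also expresses, at 0.23 ± 0.35 and the transcription factor gene Xbp1 at 0.43 ± 0.54 (SD, n = 4 each). Jchain, picked after its values were seen, spread more, at -0.55, 3.07, 1.69 and -2.23 on arrays a, b, e and k (SD 2.35). Of the 9 genes, 7 had a mean above 0 and 2 a mean below 0, where 54.4% of all genes had a mean below 0.

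Ccl20, which the epithelium over lymphoid follicles makes to attract Ccr6-bearing cells, had a P90 signal of 8.63, 7.29, 7.79 and 7.68 on arrays a, b, e and k, against a P30 signal of 6.73, 7.33, 7.55 and 7.88. On array a its P90 RNA was the highest and its P30 RNA the lowest of all 8. The ratio of Ccl20 was 1.91 on a and between -0.21 and 0.24 on b, e and k, with a mean of 0.47 ± 0.97 (SD, n = 4; 95% interval -0.44 to 1.39, limma adjusted p = 0.764). Without array a the mean was -0.0044, so the value above 0 came from that array.

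Cxcl1, a neutrophil chemoattractant that acts through Cxcr2, was at the limit of detection, well above background on 2 of 4 arrays at each age. Its raw spot brightness was 71, 61.5, 84 and 59 at P90 on arrays a, b, e and k, over local backgrounds of 45.5, 46, 73 and 42, against 86, 88, 62 and 75 at P30 over 70.5, 69, 38.5 and 72.5. The ratios ran from -0.32 to 0.24 and were not tested. Of 10 neutrophil markers 3 were tested, with medians between -0.24 and 0.063 over the arrays. S100a8, Ly6g, Elane and Csf3r were among those not tested. The 3 tested were dim, with mean log2 intensities of 6.17 (Retnlg), 6.31 (Mmp9) and 6.90 (S100a9), so medians near 0 say little about these cells. S100a9, a calcium-binding protein of neutrophils, was at 0.41, -0.21, 2.02 and 0.94 on arrays a, b, e and k. Its mean was 0.79 ± 0.94, and that of the gelatinase gene Mmp9 -0.058 ± 0.23 (SD, n = 4 each).

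Ccl20 and Cxcl1 are textbook targets of NF-kappaB, and they were the chemokines whose start windows held its kappaB consensus, in 2 of 10 windows beside 8.46% of all windows. The stretches shown run from -100 to -1 before the RefSeq start on the plus strand of GRCm38.p6, at chr1:83116666-83116765 for Ccl20 and chr5:90891145-90891244 for Cxcl1. Capitals mark matches to the kappaB consensus on either strand; in Cxcl1 overlapping matches on both strands form 1 block.
Ccl20: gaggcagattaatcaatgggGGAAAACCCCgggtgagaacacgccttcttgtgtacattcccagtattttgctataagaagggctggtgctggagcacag
Cxcl1: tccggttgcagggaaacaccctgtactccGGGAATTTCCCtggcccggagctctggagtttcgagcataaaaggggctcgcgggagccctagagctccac

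The match begins 80 bases before the start in Ccl20 and 71 bases before it in Cxcl1. An AP-1 motif (TGANTCA) was found in 1 of 10 chemokine windows, that of Ccl28, and in 7.81% of all windows. Such matches describe the letters of these windows only.

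Ccl6, a CC chemokine first known from mouse myeloid cells, gave spots near the ceiling of the scanner. Raw brightness was 21573, 61436, 65089.5 and 51874 on arrays a, b, e and k at P90, against 65507, 65507, 54617.5 and 33098 on arrays a, b, e and k at P30, where the spots of arrays a and b were saturated. On those arrays the raw P30 brightness was thus at least the value read. The ratio as read was -0.46, 0.23, 0.11 and 1.42 on arrays a, b, e and k. The values of a and b rest on saturated spots, and such spots also entered the loess normalization. Neither the size nor the sign of the mean as read, 0.33, is therefore settled. Without array k the mean was -0.041.

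Of 22 chemokine receptor genes 15 were tested. None passed limma's adjusted test and none had an unadjusted p below 0.05 in either direction (2.59% of all genes did as higher and 5.31% as lower). Their median ratio was -0.027, with medians of -0.055, -0.094, 0.064 and -0.077 on arrays a, b, e and k.

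By smallest p the receptors were Ackr2, a scavenger of CC chemokines, at -0.52 ± 0.61, Cxcr3, a receptor of effector T cells, at 0.18 ± 0.10, Ackr3 at -0.55 ± 0.98 and the macrophage receptor gene Cx3cr1 at -0.30 ± 0.59 (SD, n = 4 each). Cxcr3 was above 0 on all 4 arrays, and the other 3 had the sign pattern of Cxcl12.

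Receptors of the 10 ligands were also read as pairs, chosen by ligand after their values were seen. Cxcr4 and Ackr3, the receptors of Cxcl12, were at -0.25 and -1.58 on array a and at 0.41 and 0.77 on b, with the signs of Cxcl12 on all 4 arrays. Cxcr5, the receptor of Cxcl13, was at 0.29, -0.10, 0.064 and -0.045 on a, b, e and k. Ccr9, the receptor of Ccl25, was at -0.059 on array k, where its ligand was at -2.43. Ccr6, the receptor of Ccl20, was at 0.041 on array a, and Cxcr6, that of Cxcl16, at 0.27 on array k. Apart from Ackr3 (mean log2 intensity 9.04), these receptors were dim, from 6.53 (Ccr9) to 7.10 (Cxcr6). Their ratios near 0 therefore do not show that they stayed the same. Ccr10, Cxcr2 and Ccr8 were not bright enough to be tested.

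Of 27 other chemokine genes, 26 were on the array and 20 were tested, with a median ratio of -0.078. None passed limma's adjusted test. At an unadjusted p below 0.05, 1 was higher (2.59% of all genes) and 2 were lower (5.31%). Cxcl10, an interferon-induced ligand of Cxcr3, was at -0.72 ± 0.43 and below 0 on all 4 arrays. Ccl5, made by T cells and NK cells, was at 0.92 ± 0.65 and above 0 on all 4. Ccl12, a monocyte chemokine, was at -0.50 ± 0.47, and Pf4, platelet factor 4, at -1.22 ± 1.33 (SD, n = 4 each), both with the sign pattern of Cxcl12.

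**Figure D3:**
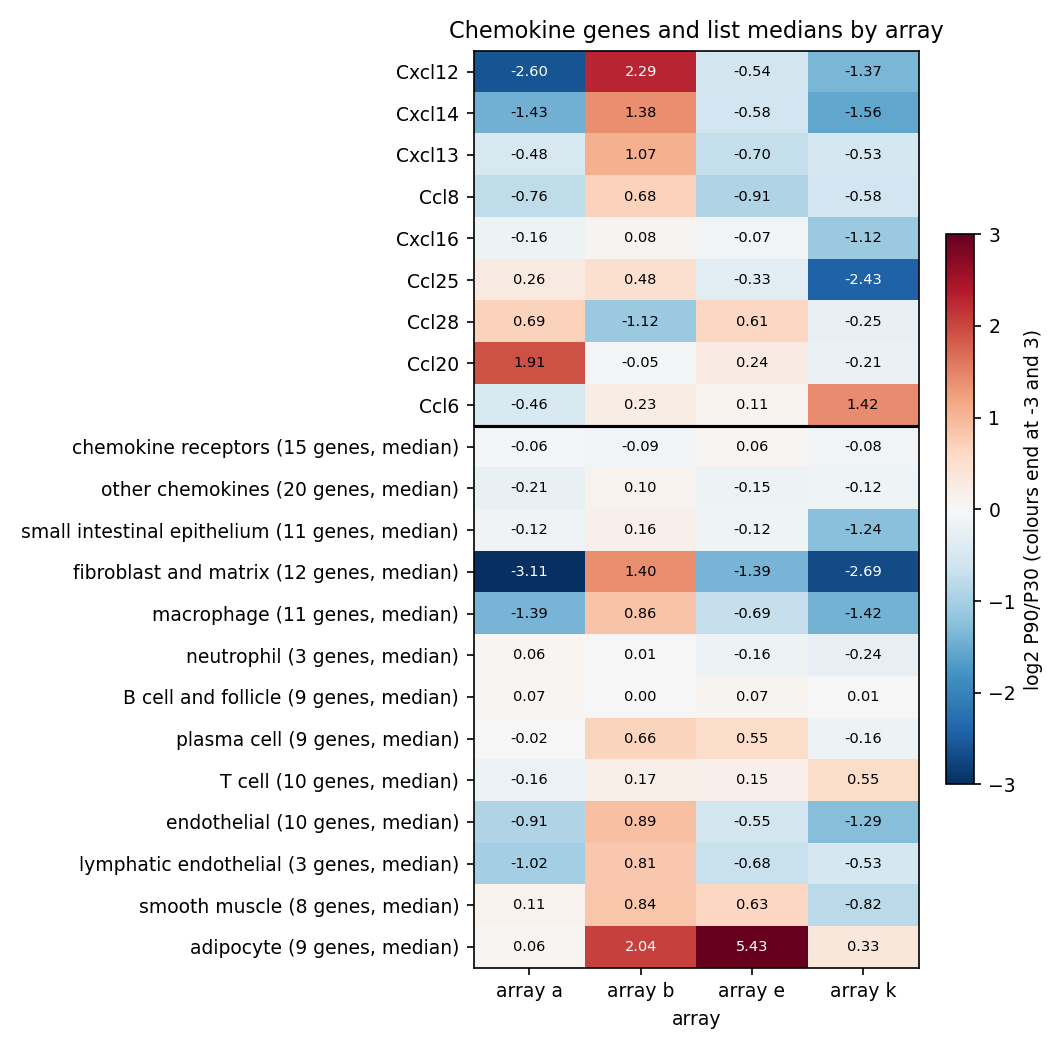
Log2 P90/P30 of the 9 tested chemokines (above the line) and the median log2 P90/P30 of each receptor, chemokine and marker list but that of colonic epithelium (below it), by array, in colour and as printed values. Cxcl12 and Cxcl14 share their signs with the fibroblast and matrix list, at -3.11, 1.40, -1.39 and -2.69 on arrays a, b, e and k, and also with the macrophage, endothelial, lymphatic, small intestinal and other chemokine lists, while Ccl25 and the small intestinal list are both lowest on array k.

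Further lists were read beside the chemokines. T cell markers (10 of 10 tested) had medians of -0.16, 0.17, 0.15 and 0.55 on arrays a, b, e and k, with the kinase gene Lck at 0.031 ± 0.53 and Cd3d, part of the T cell receptor complex, at 0.24 ± 0.44 (SD, n = 4 each). Smooth muscle markers (8 of 8) had 0.11, 0.84, 0.63 and -0.82, with the actin gene Acta2 at -0.0031 ± 0.69 and Tagln at 0.16 ± 0.95. Adipocyte markers (9 of 10, Lep not tested) had 0.056, 2.04, 5.43 and 0.33, with a summed signal of 12.66 to 17.59 at P90 against 11.92 to 13.66 at P30. The lipid droplet gene Cidec was at 0.77 ± 1.74 and Fabp4 at 1.30 ± 2.53, and these were the brightest adipocyte markers. In the adipocyte list 2 genes were saturated in a channel on at least 1 array, so its ratios and summed signal may in part follow the scanner's ceiling. Of these 3 lists, none had the signs of Cxcl12 on all 4 arrays. The 4 colonic epithelial markers with no saturated spot had medians of -0.46, 0.010, -0.37 and -0.48 on arrays a, b, e and k. These medians had the signs of Cxcl12, with the value on array b close to 0.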

How the data were processed

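Total RNA of P90 and P30 colonic mucosa was compared on 4 two-colour Agilent arrays. The deposited scanner files hold spot and local background intensity per channel, per the file headers, made with Agilent Feature Extraction 10.5.1.1 (8.5.1.1 per the submitters' processing notes). The authors' deposited log10 ratio is that of the processed Cy5 signal over the processed Cy3 signal, and the other columns used are 0 or 1 marks for background, saturation and outliers, per the file headers. The authors' deposited value table held log2 P90/P30: it matched the turned log ratio within 0.01 for 80.0% to 87.0% of probes, and its medians over all gene probes were 0.21 (array a), -0.17 (b), 0.049 (e) and 0.17 (k); how it was centred is not given in the sources used here.

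Median signals were corrected with normexp (offset 50) and loess (span 0.3) in limma 3.58.1 under R 4.3.3, with outlier spots left out and saturated spots kept. Signals between arrays were scaled with Aquantile, which leaves ratios as they are. Probes well above background at P90 or at P30 on at least 3 of 4 arrays were kept (27055), and the brightest probe stood for its gene. RefSeq accessions of GRCm38.p6 named 25097 probes, and 16077 kept their accession; promoter sequences are RefSeq's in the same build. The array design's own build differs, so no gene coordinates are given from it. Ratios were tested against 0 with lmFit and eBayes and adjusted (Benjamini-Hochberg) over 20825 genes; the fit was tested on simulated data. All arrays lay on 1 slide, so no batch could be tested.

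The genes and lists were chosen with earlier results of these data known. Named were all 10 chemokines, the 4 of smallest p in the receptor and chemokine lists, the 2 brightest of each marker list and the 3 genes nearest to the chemokine of largest mean and of largest SD.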

Additional observations from a re-analysis of the deposited data

Results flagged for a closer look

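Cxcl13 on array b, with a log2 P90/P30 of 1.07, lay far from the other 3 arrays: its gap to the nearest of them was 0.876 of the whole range, past the Dixon limit of 0.829 for 4 values. It was the 1 value among 9 chemokine genes past this limit; chance passes it for about 5% of such groups. Ccl8 on array b (gap 0.795), Cxcl16 on k (0.806) and Ccl20 on a (0.787) came close without passing.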

How the results depend on the processing

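Over 11 alternatives, the 9 chemokine genes gave 99 values, of which 89 kept their direction and none was called. The number of genes called in all was 0 in limma with normexp and loess, 2 with the scanner's processed signals and 2 with the series' value table (all higher), and 0 otherwise; no chemokine was called under any. Ccl28 turned above 0 with processed signals (0.024), with a dye term (0.19), with array b turned (0.54), without array b (0.35) and without array k (0.062). Ccl20 turned without array a (-0.0044), as did Cxcl12 (0.13); Cxcl13 turned without array e (0.020), and Ccl6 (-0.041) and Ccl25 (0.14) without array k. The cause was not tested. With 1 array left out in turn, the 6 genes that turned in any alternative ranged from -0.25 to 0.35 (Ccl28), -0.0044 to 0.70 (Ccl20), -1.503 to 0.13 (Cxcl12), -0.57 to 0.020 (Cxcl13), -0.041 to 0.59 (Ccl6) and -0.83 to 0.14 (Ccl25). Ccl8, Cxcl14 and Cxcl16 stayed below 0 throughout, between -1.26 and -0.22, -1.24 and -0.21, and -0.69 and -0.050. For Cxcl16 this rests on its brighter probe: with both probes averaged the mean was -0.14, and the dimmer probe alone had a mean of 0.030. With array b turned, adjusted limma p was 0.0668 for Ccl8, 0.0670 for Cxcl14, 0.0785 for Cxcl13 and 0.0832 for Cxcl12. Median centring put the median of all genes at -0.21, against -0.020 with loess. The test was itself paired, since each ratio sets P90 against P30 on 1 array. Dim spots (Cxcl1, and Ccl8 and Cxcl13 at P90) and saturated Ccl6 spots limit those ratios. The medians and SDs of the chemokines with array b turned or 1 array left out were computed after seeing the data.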
